A study of Arabidopsis thaliana with 8 samples.

Results

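The cytosolic ribosomal protein genes described here are 58 loci of the RPL, RPS and RPP0 families, taken by locus name from the 28496 genes of the count table, in which all 58 were found. They fall into 25 families, 15 of the large subunit with 35 genes and 10 of the small subunit with 23 genes. Whole *Arabidopsis thaliana* seedlings, 6 days old, had grown without stress on MS agar of reduced strength at 22 °C under an 8 h photoperiod. They were wild type Col-0 (3 libraries: M2, P2 and S2), *TT2* OE (3 libraries: O2, R2 and U2) and *MYB5* OE (2 libraries: N2 and Q2), the overexpressors carrying *TT2* or *MYB5* under the constitutive CaMV35S promoter in the Col-0 background. *TT2* and *MYB5* encode R2R3-MYB transcription factors of the seed coat, and the labels do not say which transgenic line, or how many plants, each library came from. The libraries were compared in 3 rounds, M2, N2 and O2 (round 1), P2, Q2 and R2 (round 2), and S2 and U2 (round 3), read from the order of the code letters. No label names a round, a harvest or a date, so a round is here only a set of libraries.

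The cytosolic ribosome is built from ribosomal RNA and about as many different proteins as there are families of ribosomal protein genes. In plants each of these proteins is encoded by several paralogous genes, and the paralogs are not equally active. Ribosomal protein genes are among the most strongly transcribed genes of growing cells and rise and fall with growth, sugar supply and the activity of the TOR kinase. Many of their promoters hold site II elements, short sequences that the study examined in promoters of stress genes. Class I TCP factors have been proposed to bind them, but the paper calls the binding factors unsettled. It reports that TT2 and MYB5 activated transcription through these elements in yeast and in moss protoplasts. It also reports more *HSFA2* transcript in overexpressor seedlings. From its RNA-seq of *TT2* OE and *MYB5* OE, it reports site II elements as enriched in promoters of the genes raised in each. Some promoters hold the telo-box, an element shared with other genes of the translation machinery.

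Site II elements were searched as TGGGCC or TGGGCT on either strand, and the telo-box as AAACCCTA on either strand, in the 250 bases before each gene's annotated start. Of the 58 members, 40 (69.0%) held at least 1 site II match, against 21.9% of the promoters of 20299 tested genes, and 29 (50%) held at least 2, against 14.3%. A telo-box match was present in 10 members (17.2%) and in 3.40% of the tested genes. The 92 matches of site II in the members lay at a median of 55 bases before the start, with 90.2% of them within 125 bases, whereas 74.1% of the 8890 matches over all tested genes lay that close. They were as often on the gene's own strand (47) as on the other (45). Below are the 150 bases before the start of 3 pairs of paralogs, 2 whose members were called in opposite directions between rounds and 1 whose members differed most in site II matches, from RefSeq on build TAIR10.1, read along the gene's strand with site II and telo-box matches in capitals.
RPS9 AT5G15200 (chr5:4936430-4936579, minus strand): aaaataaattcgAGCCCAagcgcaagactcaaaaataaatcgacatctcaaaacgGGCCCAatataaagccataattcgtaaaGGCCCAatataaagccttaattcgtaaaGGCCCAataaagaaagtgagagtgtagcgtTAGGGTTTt
RPS9 AT5G39850 (chr5:15949760-15949909, plus strand): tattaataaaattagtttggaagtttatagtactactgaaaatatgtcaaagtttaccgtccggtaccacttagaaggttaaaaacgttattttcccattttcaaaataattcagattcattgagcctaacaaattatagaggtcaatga
SAC52 AT1G14320 (chr1:4887964-4888113, plus strand): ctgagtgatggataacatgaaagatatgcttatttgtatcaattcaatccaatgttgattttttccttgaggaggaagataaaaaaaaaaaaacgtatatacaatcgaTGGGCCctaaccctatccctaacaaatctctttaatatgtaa
SAG24 AT1G66580 (chr1:24838940-24839089, plus strand): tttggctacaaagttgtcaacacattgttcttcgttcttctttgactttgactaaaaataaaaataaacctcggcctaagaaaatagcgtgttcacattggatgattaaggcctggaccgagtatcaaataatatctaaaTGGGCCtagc
STV1 AT3G53020 (chr3:19662026-19662175, minus strand): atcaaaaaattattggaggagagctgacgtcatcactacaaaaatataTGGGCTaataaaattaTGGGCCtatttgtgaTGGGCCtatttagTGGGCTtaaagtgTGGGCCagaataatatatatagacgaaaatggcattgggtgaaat
RPL24A AT2G36620 (chr2:15352014-15352163, minus strand): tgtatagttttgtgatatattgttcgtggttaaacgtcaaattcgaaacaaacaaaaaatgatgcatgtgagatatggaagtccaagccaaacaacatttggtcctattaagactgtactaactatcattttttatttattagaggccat
The 4 site II matches of the RPS9 gene AT5G15200 lay 39 to 138 bases before the start and were followed by a telo-box, while its paralog AT5G39850 had neither. *STV1*, the gene of RPL24B, had 5 site II matches in a row, from 45 to 102 bases before the start, and its paralog *RPL24A* had none. *SAC52* and *SAG24*, which encode RPL10 proteins, had 1 match each, 42 and 10 bases before the start.

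Each library held between 35496351 and 48428855 counts, and 20382 genes passed the filter on low counts, among them all 58 members. *TT2* stood between 466 and 516 CPM (counts relative to library size, scaled by TMM factors) in *TT2* OE and at 0.32 CPM or less elsewhere, and *MYB5* stood at 252 and 281 CPM in *MYB5* OE and at 0.15 CPM or less elsewhere. Clustering of the libraries gave 3 sets that were the rounds, whatever the genotype. The clock gene *CCA1*, highest around dawn, stood between 3.91 and 5.77 CPM in round 1, between 216 and 240 CPM in round 2 and at 678 and 694 CPM in round 3. The evening gene *TOC1* went from 205 to 252 CPM in round 1 to between 18.7 and 23.9 CPM in the other rounds. Leaf markers were abundant in every library (18840 to 23950 CPM summed over 3 genes), root markers were present (40.7 to 55.5 CPM) and seed storage markers were near 0 (0.56 to 1.03 CPM). In whole seedlings, more cells with a transcript and more transcript per cell cannot be told apart.

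The level of the members differed more between rounds of libraries than between genotypes. Their summed level was 5507 CPM in Col-0, 5765 CPM in *MYB5* OE and 5728 CPM in *TT2* OE of round 1. In round 2 it was 7394, 7819 and 7732 CPM in the same order, and in round 3 it was 6356 CPM in Col-0 and 6802 CPM in *TT2* OE. The rounds did not overlap, and the spread over genotypes within a round was smaller than the steps between rounds. The mean of round 2 (7649 ± 225 CPM, SD, n = 3) was 35.0% above that of round 1 (5667 ± 140 CPM, SD, n = 3), and the mean of round 3 (6579 ± 315 CPM, SD, n = 2) lay 16.1% above it. These SDs run over libraries of different genotypes, and round 3 holds no *MYB5* OE library. Both subunits took part: the mean of round 2 was 38.4% above that of round 1 for the large subunit genes and 29.5% for the small subunit genes. As a part of all counts without TMM factors, the members took from 0.557% to 0.588% in round 1, from 0.728% to 0.735% in round 2, and 0.673% and 0.707% in round 3.

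**Figure D1:**
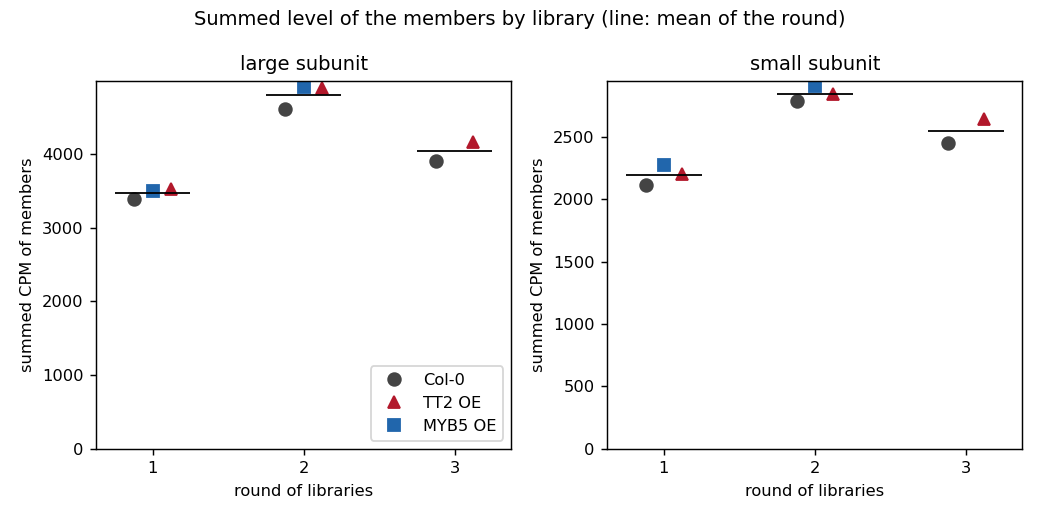
Summed CPM of the 35 large subunit and 23 small subunit members (vertical axes, from 0) in each library, by round of libraries (horizontal axes), with a symbol for each genotype and a line at the mean of the round. In both subunits the libraries of round 2 lie highest and those of round 1 lowest, and the genotypes of a round lie close together.

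Rounds were compared first for what separates the second set of libraries from the first, with genotype in the model. In round 2, 38 of the 58 members were higher than in round 1 (65.5%, against 26.7% of all genes tested) and 2 were lower (3.45%, against 27.6%), by edgeR's quasi-likelihood test at an adjusted p under 0.05. The median log2 ratio of the members was 0.42, a fold of 1.34, and that of all genes was -0.03. Ratios of members ran from -0.50 to 1.04, and 52 of 58 were above 0, against 48.2% of all genes. In 41 members (70.7%, against 29.9% of all genes) each library of round 2 stood above each library of round 1, and in 1 member (1.72%, against 31.1%) the order was the opposite. The 3 genotypes, compared one library with one library, gave medians of 0.41 in Col-0, 0.41 in *TT2* OE and 0.43 in *MYB5* OE. In that order, 53, 54 and 47 members were above 0, against 49.8%, 47.5% and 48.3% of all genes. In all 3 genotypes 47 members were above 0, and the share of all genes that were so is not given here. Most of these differences were small. By a test against a minimum fold of 1.5, 7 of the 58 members were higher in round 2, a share near the 9.59% of all genes. Clock genes moved with the same rounds, as given above, and their part in the result was not tested.

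**Figure D2:**
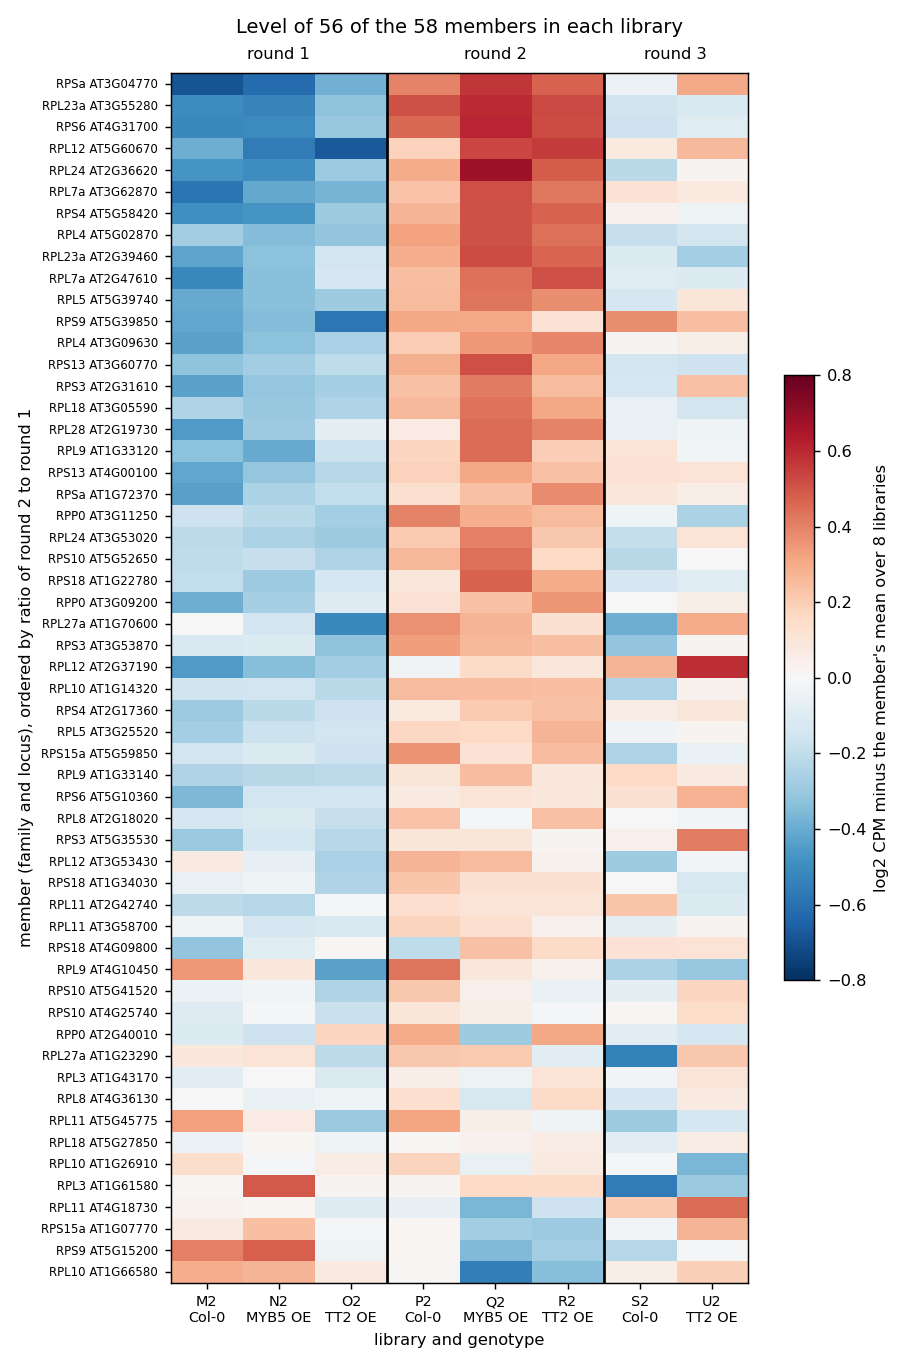
Level of 56 of the 58 members (rows, family and locus) in each library (columns, code and genotype) as log2 CPM minus the member's mean over the 8 libraries, with rows in order of the ratio of round 2 to round 1. Over all 58 members, each library of round 2 stands above each of round 1 in 41, round 3 overlaps one or both of the other rounds in many rows, and the last rows, which end with RPS9 AT5G15200 and RPL10 AT1G66580, run the other way.

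The strongest of these differences lay in genes of both subunits. *RPL23AB* (AT3G55280, chromosome 3, 20500234 to 20501738), which encodes a protein at the exit of the peptide tunnel, stood at 42.0, 41.2 and 47.6 CPM in Col-0, *MYB5* OE and *TT2* OE of round 1, at 84.9, 90.2 and 86.0 CPM in round 2, and at 53.3 and 54.7 CPM in Col-0 and *TT2* OE of round 3. All libraries of round 2 were far above the others, with a log2 ratio of 1.00 ± 0.09 (SE) to round 1 (edgeR, adjusted p = 1.23e-06). Its paralog *RPL23AA* (AT2G39460) had a log2 ratio of 0.72 ± 0.10 (edgeR, adjusted p = 5.97e-05). *RPS6* (AT4G31700, chromosome 4, 15345979 to 15347804) encodes the ribosomal protein that S6 kinases phosphorylate downstream of TOR. Its levels were 116, 116 and 134 CPM in round 1, 227, 253 and 237 CPM in round 2, and 147 and 154 CPM in round 3, in the same order of genotypes. No value of round 2 came near those of the other rounds, and the log2 ratio of round 2 to round 1 was 0.97 ± 0.09 (edgeR, adjusted p = 1.83e-06). *EMB3010* (AT5G10360), the other gene of RPS6, had a log2 ratio of 0.31 ± 0.08 (edgeR, adjusted p = 0.00771).

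Among the genes of the large subunit, *RPL24A* (AT2G36620) had 57.6, 56.6 and 65.5 CPM in round 1, 98.2, 128 and 112 CPM in round 2, and 68.8 and 81.3 CPM in round 3. The gene of RPL24, a protein at the face between the subunits, was thus higher in each library of round 2 than in any other (log2 ratio to round 1 of 0.91 ± 0.10, edgeR, adjusted p = 7.03e-06). Its paralog *STV1* (AT3G53020), known for a part in translation reinitiation, had a log2 ratio of 0.52 ± 0.10 (edgeR, adjusted p = 0.000567). The RPL7a gene AT3G62870 stood at 141, 160 and 164 CPM in round 1, 248, 304 and 284 CPM in round 2, and 230 and 224 CPM in round 3. Here round 3 also stayed clear of round 1, and the log2 ratios to round 1 were 0.84 ± 0.09 in round 2 (edgeR, adjusted p = 6.58e-06) and 0.60 ± 0.10 in round 3 (edgeR, adjusted p = 0.000533). RPL4 is a protein that lines the peptide tunnel, and both of its genes were higher in round 2, AT5G02870 with a log2 ratio of 0.74 ± 0.09 (edgeR, adjusted p = 1.56e-05) and AT3G09630 with 0.65 ± 0.08 (edgeR, adjusted p = 3.50e-05). For AT5G02870, the levels were 155, 148 and 151 CPM in round 1, 234, 267 and 254 CPM in round 2, and 165 and 169 CPM in round 3.

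In the small subunit, the RPS4 gene AT5G58420 stood at 88.9, 90.0 and 102 CPM in round 1, 151, 178 and 174 CPM in round 2, and 128 and 122 CPM in round 3 (log2 ratio of round 2 to round 1 of 0.84 ± 0.09, edgeR, adjusted p = 9.96e-06). The 3 rounds were separate for this gene. *RPSAb* (AT3G04770), a sparse gene of the RPSa protein, had the highest ratio of all members, 1.04 ± 0.13 on the log2 scale (edgeR, adjusted p = 2.36e-05), from levels of only 4.37, 4.61 and 5.40 CPM in round 1 and 9.29, 10.49 and 9.79 CPM in round 2. *P40* (AT1G72370), which makes nearly all of the RPSa transcript, was higher in round 2 by 0.54 ± 0.09 on the log2 scale (edgeR, adjusted p = 0.000269), from between 185 and 218 CPM to between 274 and 324 CPM.

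By family, all listed members were higher in round 2 in 11 of the 25 families, at least 1 member was higher in 23, and none was called in 2. The last were RPL3, a protein near the peptidyl transferase centre, whose main gene *RP1* (AT1G43170) stood between 330 and 385 CPM in every library, and RPL11, a protein that enters the ribosome with its small ribosomal RNA. In RPL10 and RPS9, paralogs were called in opposite directions. *SAG24* (AT1G66580), a gene of RPL10 first described in ageing leaves, had 82.1, 81.0 and 70.4 CPM in round 1, 67.5, 45.7 and 52.9 CPM in round 2, and 69.6 and 76.6 CPM in round 3. It was lower in round 2 than in round 1 in each genotype (log2 ratio -0.50 ± 0.12, edgeR, adjusted p = 0.00336). *SAC52* (AT1G14320), the main gene of RPL10, which joins the large subunit late in its assembly, stood at 171, 172 and 164 CPM in round 1, 227, 226 and 226 CPM in round 2, and 161 and 195 CPM in round 3. It was higher in round 2 in all libraries (log2 ratio 0.42 ± 0.09, edgeR, adjusted p = 0.00185), and the third gene, *RPL10B* (AT1G26910), stood between 4.63 and 6.77 CPM with a log2 ratio of 0.00 ± 0.13.

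RPS9 is a small subunit protein that binds ribosomal RNA early in assembly. Its main gene AT5G15200 stood at 196, 207 and 144 CPM in Col-0, *MYB5* OE and *TT2* OE of round 1, at 150, 116 and 123 CPM in round 2, and at 127 and 148 CPM in round 3. The *TT2* OE library of round 1 overlapped the later rounds, and the log2 ratio of round 2 to round 1 was -0.49 ± 0.13 (edgeR, adjusted p = 0.00818). This call was lost without Col-0 replicate 1 (adjusted p = 0.0525), without *MYB5* OE replicate 1 (0.0843) and without *MYB5* OE replicate 2 (0.0938), all by edgeR. The minor gene AT5G39850 went the other way, from 7.52, 7.91 and 6.74 CPM in round 1 to 12.4, 12.4 and 10.9 CPM in round 2 and 13 and 11.8 CPM in round 3 (log2 ratio of round 2 to round 1 of 0.69 ± 0.11, edgeR, adjusted p = 0.000155). Of the 2 paralogs together, and per transcript length, AT5G39850 made 3.82% ± 0.433 (SD, n = 3) in round 1, 8.22% ± 1.00 (SD, n = 3) in round 2 and 8.10% ± 1.29 (SD, n = 2) in round 3.

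**Figure D3:**
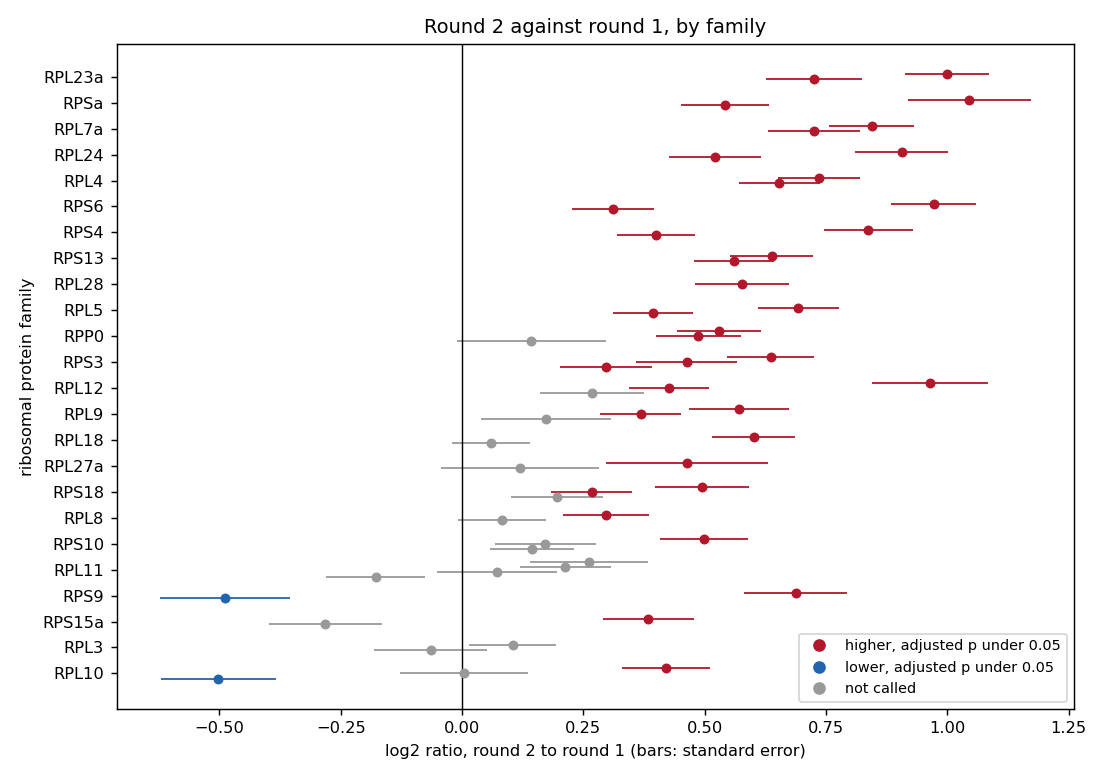
Log2 ratio of round 2 to round 1 (horizontal axis, bars show the standard error) for 56 of the 58 members, by family (vertical axis). RPL10 and RPS9 hold members called in both directions, and the RPL23a, RPL7a and RPL4 families are called higher throughout.

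Paralog shares, taken per transcript length within the listed members of a family, moved with the rounds in other families too. *SAG24* made 29.9% ± 1.31 (SD, n = 3) of RPL10 in round 1, 18.6% ± 2.92 (SD, n = 3) in round 2 and 27.8% ± 1.16 (SD, n = 2) in round 3. For RPS15a, a small subunit protein, *RPS15A* (AT1G07770) made between 49.5% and 52.9% in round 1, between 37.8% and 40.9% in round 2, and 50.7% and 52.4% in round 3. Its own log2 ratio of round 2 to round 1 was -0.28 ± 0.12 (edgeR, adjusted p = 0.0569), beside 0.38 ± 0.09 (edgeR, adjusted p = 0.00421) for the paralog AT5G59850. *RPS6* made 40.4% of its pair in round 1, 51.8% in round 2 and 38.6% in round 3, so *EMB3010* led in the 5 libraries of rounds 1 and 3 and *RPS6* in the 3 of round 2. These shares are descriptions, and they depend on the annotated transcript lengths. For *RPS15A* and AT5G59850 these lengths were 1653 and 847 bases, though both coding lengths were 393. By CPM, *RPS15A* lay above AT5G59850 in every library. Reads can be split between near-identical copies, which matters for the RPL9 genes AT1G33120 and *PGY2* (AT1G33140), with 53.4% and 54.2% of the 50-base stretches of their transcripts shared with another transcript. For all other members that part was 8.27% or less.

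**Figure D4:**
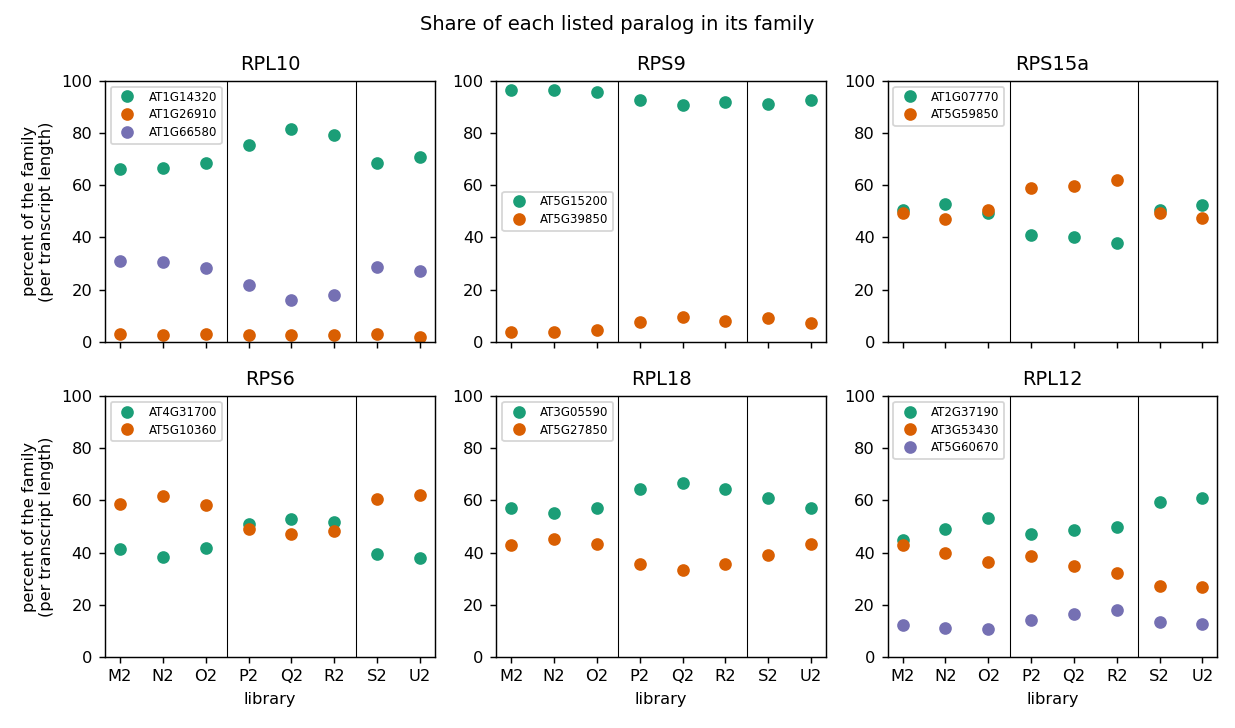
Share of each listed paralog in its family, in percent of the family's level per transcript length (vertical axes, 0 to 100), in each of the 8 libraries (horizontal axes), with upright lines that separate the rounds, for 6 families. In RPS15a, RPS6 and RPL18, and for *SAC52* and *SAG24* but not *RPL10B* in RPL10, the shares of round 2 stand apart from those of rounds 1 and 3, and in RPL12 the shares of AT2G37190 and AT3G53430 in round 3 stand apart.

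Round 3 was compared with round 1 and with round 2. These comparisons share libraries, so their values are set side by side only. Against round 1, 22 members were higher in round 3 (37.9%, against 20.8% of all genes tested) and 1 was lower (1.72%, against 20.0%), with a median log2 ratio of 0.19 for members and 0.01 for all genes. Without Col-0 replicate 1 the count of higher members was 14. In 33 members (56.9%, against 32.4% of all genes) both libraries of round 3 stood above all of round 1, and 1 member (against 5.43% of all genes) passed a minimum fold of 1.5. Against round 2, 2 members were higher (3.45%, against 18.5%) and 20 were lower (34.5%, against 19%), with a median of -0.23. In 33 members (56.9%, against 28.2% of all genes) all libraries of round 2 stood above both of round 3. The count of lower members was 12 without *TT2* OE replicate 2 and also 12 without Col-0 replicate 3, and with library size alone, without TMM factors, 10 members were lower and 5 higher. That scaling moved the median of all genes in this comparison from 0.02 to 0.14, and the members' median was then -0.11. Against the minimum fold of 1.5, no member was lower by adjusted p (against 5.01% of all genes). In the edgeR test without that minimum, 29 of the 58 members had an unadjusted p under 0.05, near the 46.7% of all genes. With the minimum it was 1 member.

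**Figure D5:**
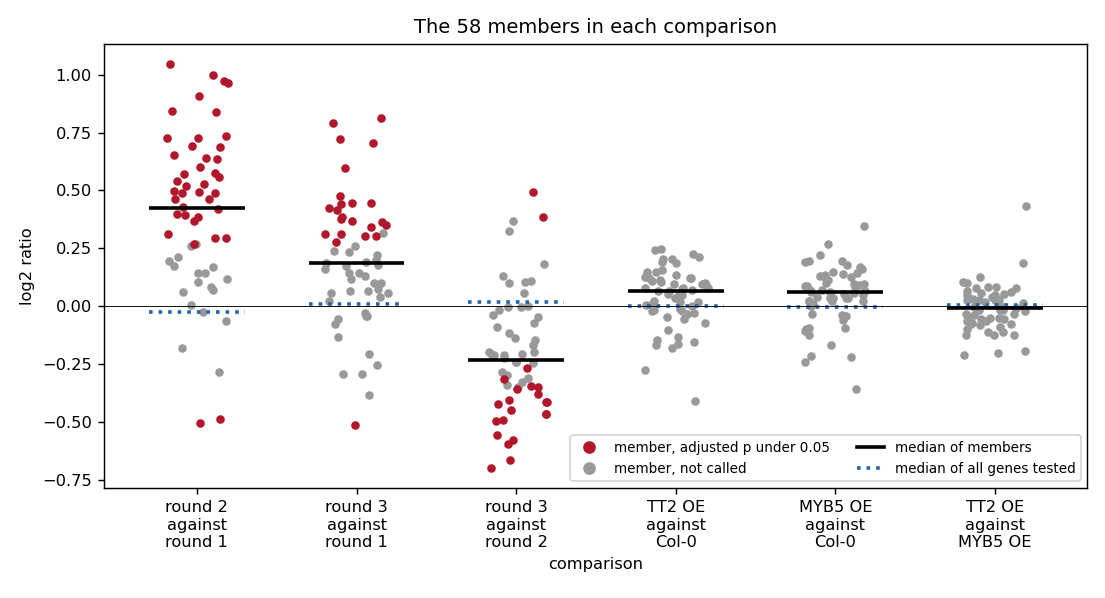
Log2 ratio (vertical axis) of the 58 members in each of the 6 comparisons (horizontal axis), in red where the adjusted p was under 0.05, with a black line at the median of the members and a dotted blue line at the median of all genes tested. Of the 58 members, 52 lie above 0 in round 2 against round 1 (median 0.42), against 48.2% of all genes. Most lie below 0 in round 3 against round 2 (median -0.23), and none is called between genotypes.

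The member with the smallest p in round 3 against round 1 was the RPL12 gene AT2G37190. RPL12 sits at the base of the stalk to which translation factors bind. The gene stood at 68.1, 73.7 and 76.8 CPM in round 1, 91.2, 104 and 99.1 CPM in round 2, and 112 and 140 CPM in round 3, so that the rounds did not overlap and round 3 was the highest. Its log2 ratios were 0.81 ± 0.10 for round 3 against round 1 (edgeR, adjusted p = 2.81e-05) and 0.38 ± 0.10 for round 3 against round 2 (edgeR, adjusted p = 0.00773). The second call was lost without *TT2* OE replicate 2 (adjusted p = 0.127) and without *TT2* OE replicate 3 (0.0909), by edgeR. Its paralog AT5G60670 stood at 21.2, 18.9 and 17.5 CPM in round 1, 31.6, 40.3 and 41.0 CPM in round 2, and 29.3 and 33.3 CPM in round 3, with a log2 ratio of 0.72 ± 0.14 for round 3 against round 1 (edgeR, adjusted p = 0.00118). AT2G37190 made 49.1% of the RPL12 family per length in round 1, 48.6% in round 2 and 60.1% in round 3.

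Other members higher in round 3 than in round 1 were the RPS9 gene AT5G39850 (log2 ratio 0.79 ± 0.12, edgeR, adjusted p = 0.000262) and *RPSAb* (0.70 ± 0.15, adjusted p = 0.00231). The one member lower in round 3 was *RPL3B* (AT1G61580), the minor gene of RPL3, with 11.5, 16 and 11.6 CPM in round 1, 11.6, 12.7 and 12.7 CPM in round 2, and 7.74 and 9.29 CPM in round 3. Both libraries of round 3 were the lowest, with a log2 ratio to round 1 of -0.51 ± 0.14 (edgeR, adjusted p = 0.0121), and the call was lost without Col-0 replicate 1 (adjusted p = 0.0540) and without Col-0 replicate 3 (0.107). *RPL16B* (AT4G18730), the main gene of the RPL11 family, was one of the 2 members higher in round 3 than in round 2, from 55.4, 44.8 and 51.7 CPM to 66.8 and 78.9 CPM (log2 ratio 0.49 ± 0.12, edgeR, adjusted p = 0.00588). That call too was lost without *TT2* OE replicate 2 (adjusted p = 0.0552) and without *TT2* OE replicate 3 (0.115). The members lower in round 3 than in round 2 with the smallest p were *RPL23AB* (-0.70 ± 0.10), *RPS6* (-0.66 ± 0.10), the RPL4 gene AT5G02870 (-0.58 ± 0.10), *RPL23AA* (-0.59 ± 0.12), *RPL24A* (-0.56 ± 0.11) and the RPS13 gene AT3G60770 (-0.49 ± 0.10), with edgeR adjusted p from 0.000232 to 0.00246.

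Genotypes were compared within rounds. No member was called in any of the 3 genotype comparisons. In *TT2* OE against Col-0, 0 members were higher (against 0.697% of all genes) and 0 lower (against 0.711%), with a median log2 ratio of 0.06 and a range from -0.41 to 0.25. The median of all genes was 0.001, and 40 of the 58 members lay above 0, against 50.2% of all genes. In *MYB5* OE against Col-0, the counts were 0 higher (against 0.0736%) and 0 lower (against 0.0932%), with a median of 0.06 and a range from -0.36 to 0.34. Here the median of all genes was -0.003, and 44 of the 58 members lay above 0, against 49.3% of all genes. Both overexpressors thus leaned slightly above Col-0. The lean was smaller without TMM factors, as given below, and was not tested. Between the overexpressors, 0 were higher in *TT2* OE (against 0.0638%) and 0 lower (against 0.108%), with a median of -0.01 and 26 members above 0 (against 51.9% of all genes). At an unadjusted p under 0.05 there were 7 members in *TT2* OE (against 12.8% of all genes), 2 in *MYB5* OE (against 8.26%) and 1 between the overexpressors (against 3.91%), and DESeq2 with the same terms also called 0 in each. The 95% interval of the log2 ratio lay within a fold of 1.5 in either direction for 57 members in *TT2* OE, 56 in *MYB5* OE and 57 between the overexpressors.

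The members with the smallest p were the RPL9 gene AT4G10450 in *TT2* OE, *RPL3B* in *MYB5* OE (log2 ratio 0.34 ± 0.14, edgeR, adjusted p = 0.527) and the RPP0 gene AT2G40010 between the overexpressors. AT4G10450 stood at 15.7, 16.5 and 10.3 CPM in Col-0 and at 9.15, 12.6 and 9.97 CPM in *TT2* OE. Within each round *TT2* OE lay below Col-0, though the genotypes overlapped between rounds. The log2 ratio was -0.41 ± 0.13 and did not pass the test (edgeR, adjusted p = 0.200). *RPS18C* (AT4G09800), a gene of a small subunit protein near the head of the subunit, had 101, 109 and 136 CPM in Col-0, 126, 140 and 136 CPM in *TT2* OE, and 118 and 148 CPM in *MYB5* OE, with a ratio to Col-0, on the log2 scale, of 0.22 ± 0.10 in *TT2* OE (edgeR, adjusted p = 0.338) and 0.27 ± 0.11 in *MYB5* OE (adjusted p = 0.555). In the single gene of RPL28 among the members, AT2G19730, the levels were 94.0, 134 and 123 CPM in Col-0, 122, 169 and 126 CPM in *TT2* OE, and 105 and 175 CPM in *MYB5* OE (0.25 ± 0.10 above Col-0 on the log2 scale in *TT2* OE, adjusted p = 0.299, and 0.22 ± 0.11 in *MYB5* OE, adjusted p = 0.667, by edgeR). In both genes the overexpressors lay at or above Col-0 within a round, except that *RPS18C* was level in round 3, and neither difference passed the test. Other members with the smallest p were AT2G37190 in *TT2* OE (0.20 ± 0.08, edgeR, adjusted p = 0.317) and the RPL8 gene AT4G36130 between the overexpressors (0.19 ± 0.11, adjusted p = 1.00). AT2G40010 had a log2 ratio of 0.43 ± 0.18 between the overexpressors (edgeR, adjusted p = 1.00), at levels between 3.75 and 5.66 CPM. Compared one library with one library, *TT2* OE gave medians of 0.02, 0.02 and 0.08 in rounds 1, 2 and 3.

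Per transcript length, the level of the members ran over a wide range, from 5.11 TPM (computed from the counts and the transcript length) for the RPP0 gene AT2G40010 to 345 for its paralog AT3G09200, with a median of 160. RPP0 is the protein that carries the stalk of the large subunit. The 6 members with the highest CPM were *RP1*, AT3G09200, *ATL5* (AT3G25520), *P40*, AT3G09630 and AT3G62870, with levels per length between 242 and 345. Of these *ATL5*, a gene of the RPL5 protein that binds the small ribosomal RNA of the large subunit, stood between 215 and 234 CPM in round 1, between 290 and 312 CPM in round 2, and at 254 and 263 CPM in round 3. The 4 members lowest by CPM were AT2G40010, *RPL10B*, *RPSAb* and *RPL16A* (AT2G42740), a gene of the RPL11 family with 8.61 to 11.7 CPM. In families with a sparse paralog the difference was large: AT3G09200 stood 67.5-fold above AT2G40010, *P40* 37.1-fold above *RPSAb*, *SAC52* 27.0-fold above *RPL10B* and *RP1* 26.5-fold above *RPL3B* per length. The pairs of RPL7a and RPS4 were level, with ratios of 1.00 and 1.02. In 19 of 24 families with more than 1 listed gene, the same paralog led in all 8 libraries by level per length. That count depends on the annotated transcript lengths.

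The likeness of members across libraries was also described. The libraries clustered by round, and 26.7% of all genes tested were called higher in round 2 than in round 1. A correlation with the members therefore follows in part from the differences between rounds. Its values for other genes are not given here, so the likeness is not shown to be particular to the members. The correlation of a member's log2 CPM with the mean of the other members over the 8 libraries, which share rounds and genotypes, had a median Pearson r of 0.86, and it was above 0.80 in 33 members. The highest was *RPL5B* (AT5G39740), at 0.99. It was below 0 in 7 members, among them *SAG24* (-0.79), AT5G15200 (-0.71), *RPS15A* (-0.60), *RPL16B* (-0.36), *RPL10B* (-0.09) and *RPL3B* (-0.03). The first 4 of these were also the ones that were lower in round 2 than in round 1 in all 3 genotypes.

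The difference between rounds 1 and 2 was also counted by site II matches. Of 18 members with no match in the 250 bases, 15 (83.3%) were higher in round 2, with a median log2 ratio of 0.57. Of 11 with 1 match, 7 (63.6%) were higher and 1 was lower, with a median of 0.30, and of 29 with 2 or more, 16 (55.2%) were higher and 1 was lower, with a median of 0.31. *RPL23AB*, *RPL24A*, AT5G02870 and *RPSAb*, all among the largest ratios, had no match. *RPS6* and AT3G62870 had 1, and the RPS4 gene AT5G58420 had 3. *RPL5B* and AT3G09630, with 4 matches each, and *STV1*, with 5, were also higher, with log2 ratios of 0.69, 0.65 and 0.52. Of the 2 members called lower, *SAG24* had 1 match and AT5G15200 had 4. *RPL16B*, with no match, had a log2 ratio of -0.18 and was not called. Over all tested genes, 25.4% of those with a match and 27.1% of those without were higher in round 2. The difference between members with and without a match was not tested.

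Other genes of the translation machinery were counted beside the members. Of all genes tested, 26.7% were higher and 27.6% lower in round 2 than in round 1. For round 3 against round 1 these shares were 20.8% and 20.0%. Of 143 tested genes of other cytosolic ribosomal proteins, 92 (64.3%) were higher in round 2 than in round 1 and 3 were lower, with a median log2 ratio of 0.37, close to the 0.42 of the members. Ribosome biogenesis factors had 27 of 34 higher and 0 lower (median 0.68), and translation factors had 17 of 24 higher and 0 lower (median 0.47). Ribosomal proteins of the plastid, a separate set of ribosomes in the chloroplast, had 4 of 30 higher and 13 lower (median -0.15). In round 3 against round 1 the same lists had 50 of 143, 22 of 34, 16 of 24 and 1 of 30 genes higher, and 7, 0, 0 and 17 lower. Cell division genes had 1 of 10 higher and 6 lower in round 2, and 0 higher and 9 lower in round 3, against round 1. Their summed level was between 122 and 125 CPM in round 1, between 101 and 109 CPM in round 2, and between 63.1 and 81.4 CPM in round 3. In the genotype comparisons 0 genes of these lists were called by edgeR.

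Regulators tied to ribosomal protein genes differed between rounds as single genes. Of 16 tested class I TCP and TOR pathway genes, 8 were higher and 3 were lower in round 2 than in round 1. The kinase gene *S6K1* (AT3G08730), whose product phosphorylates RPS6, stood between 58.2 and 70.4 CPM in round 1, between 201 and 233 CPM in round 2, and at 475 and 523 CPM in round 3. Its order of rounds thus differed from that of *RPS6*, which was highest in round 2. *TCP15* (AT1G69690) stood between 15.4 and 16.7 CPM in round 1, between 35.0 and 41.0 CPM in round 2, and at 27.3 and 23.5 CPM in round 3, an order like that of most members. *TCP14* (AT3G47620), its close relative, was between 111 and 119 CPM, between 128 and 180 CPM, and at 94.7 and 108 CPM, and the gene of the TOR kinase itself (AT1G50030) was lower in round 2 (log2 ratio -0.38 ± 0.08, edgeR, adjusted p = 0.00199). These 4 were picked after their values had been seen, and their part in the levels of the members was not tested.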

How the data were processed

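RNA from whole seedlings had been sequenced in pairs on a NextSeq 500 from NEBNext Ultra Directional libraries. The values are the counts of reads per gene that the authors deposited, made with CLC Genomics Workbench 10 on TAIR10. How reads that fit several genes were shared out is not given in the sources used here. Left unused were 4 columns of a library that matches no sample and 24 further columns of normalized values. The study describes 3 biological replicates per genotype, and nothing in the labels ties a library to a separate culture, so p-values measure the spread between these libraries. The third *MYB5* OE library was not analysed here.

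Low genes were removed with filterByExpr, given the genotypes, which left 20382 of 28496 genes. Counts were scaled by TMM (factors 0.932 to 1.06) and tested with edgeR 4.0.16 in R 4.3.3 (quasi-likelihood, two-sided, Benjamini-Hochberg over all genes tested, adjusted p under 0.05) over all 8 libraries with round and genotype as terms. The model left 3 residual degrees of freedom. The common dispersion was 0.0107 with the round term and 0.130 with genotype alone. No 2 libraries agreed within sampling noise (chi-square per degree of freedom of at least 15.9). Replicate numbers are not in the labels and were given in accession order, and for these 8 libraries they equal the rounds. The pairing of libraries by round was read from the order of the code letters, and no label backs it. Clustering of the same counts gave the same sets. The round term is the replicate block of the genotype comparisons.

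Single-library ratios used log2 of CPM + 0.5. Levels per length used the longest RefSeq transcript, and the promoter search used 250 bases before the RefSeq start on TAIR10.1, whose locus names matched all 58 members. Members and lists were chosen with earlier results of these data known. From the list of other ribosomal proteins, 4 loci that the reference does not name as such were left out. Named members are, per round comparison, up to 6 called with the smallest p in each direction, per genotype comparison the 4 with the smallest p, the 6 highest and 4 lowest by CPM, and families called in both directions. The 2 members of 1 family are counted but their own values are not reported here. Others named were singled out after their values were seen. Alternatives were RLE, upper-quartile or no scaling factors, no filter, DESeq2 1.42.0, a minimum fold of 1.5, each library left out, other model terms, and other forms of the site II element. Python 3.11.15 and matplotlib 3.10.9 drew the figures.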

Additional observations from a re-analysis of the deposited data

How the results depend on the processing

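With library size alone in place of TMM factors, the median of all genes moved to -0.11 in round 2 against round 1 and to 0.14 in round 3 against round 2, where 5416 genes were then higher and 2902 lower, beside 3764 and 3866 with TMM. With that scaling the members' median log2 ratio was 0.34 in round 2 and 0.22 in round 3 against round 1 and -0.11 between rounds 3 and 2, 4 members were lower in round 2 than in round 1, 5 were higher and 10 lower in round 3 than in round 2, the medians in *TT2* OE and *MYB5* OE against Col-0 were 0.037 and 0.008, and the summed level of round 2 was 27.2% above that of round 1. Upper-quartile factors gave medians of 0.37 in round 2 against round 1 and -0.19 in round 3 against round 2, with 4 members higher in the latter. The sign of the ratio of *RPL10B* (AT1G26910) in round 2 against round 1 turned with these scalings, to -0.082 and -0.049, and without Col-0 replicate 1 or *TT2* OE replicate 2, to -0.043 and -0.025 (range with each library left out, -0.043 to 0.044). Without the filter, or with DESeq2, 2 members were lower in round 3 than in round 1. Against a minimum fold of 1.5 by edgeR, 7 of the 58 members were higher and 0 lower in round 2 against round 1 (9.59% of all genes were higher, a share near that of the members). The counts were 1 and 0 in round 3 against round 1 (5.43% of all genes were higher). In round 3 against round 2 they were 0 and 0 (5.01% of all genes were lower). At an unadjusted p under 0.05 in that test there were 11, 2 and 1 members, and the share of all genes at that p is not given here. DESeq2 was not run against that fold. The cause of these shifts was not tested.

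Leaving out each library in turn gave 35 to 40 members higher and 1 to 3 lower in round 2 against round 1 (median 0.40 to 0.47), 14 to 20 higher and 0 to 5 lower in round 3 against round 1 (0.17 to 0.23), and 0 to 5 higher and 12 to 19 lower in round 3 against round 2 (-0.28 to -0.19). The median in *MYB5* OE against Col-0 ran from 0.056 to 0.093, and in *TT2* OE from 0.039 to 0.085. In the genotype comparisons no member was called by edgeR under any of these settings. Without the round as a replicate block, with genotype alone in the model, 0 members were higher and 0 lower in each genotype comparison by edgeR and, as an alternative chosen after seeing the data, by DESeq2. The rounds, which the replicate numbers equal, are not in the labels, and the libraries clustered by them. Of 594 alternative values for 38 results on named members, 562 kept direction and side of the threshold, 28 lost their call and 4 turned sign. In a window of 500 bases, also chosen after seeing the data, 70.7% of the members and 28.9% of tested genes held a site II match.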
